A study of Arabidopsis thaliana with 12 samples.

Results

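The genes described here are those whose rosette transcript level changed with water deficit in the atx1 mutant and changed little in the other genotypes. Members were chosen by the measured changes themselves. A probe set was taken if its group mean in atx1 differed by at least 1.5 on the log2 scale between water deficit and watering, and if the same difference was under 0.75 in size in both wild type and MYO-OX. Probe sets that differed by 1.5 or more between atx1 and wild type in the same direction in both water states were left out, as were 3 named probe sets and genes with a CYP symbol. The rule found 65 of 22746 probe sets, of which 57 were raised and 8 lowered in atx1 under deficit. The words raised and lowered name these classes, and the changes that chose them are given as a description with no test.

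Vegetative rosettes of Arabidopsis thaliana were compared at 4 weeks of age in 3 genotypes. They comprised the wild type in the Columbia-0 cultivar, a mutant of ATX1 called atx1 here, and MYO-OX, a line named for the Arabidopsis myotubularin homolog MYO1. Each genotype was either kept watered or left without water until the relative water content reached 65%, and RNA from 2 biological replicates of each of the 6 groups was hybridized to 12 ATH1 arrays. The atx1 allele, the background of the atx1 and MYO-OX lines, the promoter behind MYO-OX and the number of plants in a sample were not given in the sources used here. Values are log2 signals, so a difference of 1 is a 2-fold difference, and levels of different probe sets are not compared as amounts of RNA.

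ATX1 is a trithorax-type protein that trimethylates lysine 4 of histone H3, a mark found at the start of active genes. Myotubularins are phosphatases that act on phosphoinositide lipids. Plants that lose water make abscisic acid, which closes stomata and switches on genes for protective proteins, and loss of ATX1 is known to weaken that response. The genes below are the opposite kind, with a change in the mutant and little in wild type.

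The label of rosette tissue could be checked on few genes, since 2 of 19 leaf genes and 1 of 10 root genes in the marker lists were measured under a name. RCA, the activase of Rubisco, read 10.81 to 13.78 over the 12 arrays, LHCB4.1, a light-harvesting antenna protein, 11.74 to 13.19, and the root hair expansin gene EXPA7 3.98 to 5.38. Both leaf genes were lowest on the first MYO-OX watered array. Replicate arrays correlated at 0.928 to 0.987 over all probe sets. The water-deficit atx1 arrays read highest in the 3′ to 5′ GAPDH difference and in the spiked controls, replicate 2 by a small margin. The signal of the 3′ GAPDH control exceeded that of the 5′ control by 1.742 and 1.193 there, against at most 1.088 on any other array, and the spiked hybridization controls averaged 9.845 ± 0.265 (SD, n = 2) against group means of 8.481 to 9.195 elsewhere. On single arrays these spiked controls read 10.03 and 9.66 in atx1 under deficit, and the next highest was MYO-OX deficit replicate 1 at 9.61. Every change in atx1 given below moved together with the GAPDH and spiked controls. With each array's GAPDH difference as a covariate in the fit, 41 of the 57 raised and 5 of the 8 lowered members met the rule, among 166 raised and 52 lowered probe sets that did. With each array's spiked controls as a covariate, 44 and 5 of the members met it, among 81 and 15 probe sets. Each group kept its own mean in these fits, so the slope came only from gaps between replicates. The controls and the water-deficit atx1 group therefore cannot be told apart.

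Of the 57 raised members, 31 had 1 annotated gene, 5 of these with a symbol, while 25 were not listed in the annotation used here and 1 stood for several genes. Members with no symbol are given by locus or probe set, with no role. The raised members changed by a median of 1.87 in atx1 (range 1.5 to 3.42), and 21 of them changed at least 4-fold. In wild type their median change was 0.15 (range -0.71 to 0.61) and in MYO-OX 0.20 (range -0.62 to 0.75), where the medians over all probe sets were -0.01, 0.01 and 0.04 in atx1, wild type and MYO-OX. The member nearest the threshold was WNK9 with 1.5, and the nearest probe set outside it was AT5G10580 with 1.49. The rule took 113 raised probe sets without atx1 deficit replicate 2, and 23 with the dimmest 40% left out.

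Turned to the other genotypes and without the exclusions, the same limits took 17 raised and 15 lowered probe sets in wild type alone and 27 and 69 in MYO-OX alone, beside 70 and 10 in atx1 alone. The exclusions removed 13 raised and 2 lowered probe sets, 14 of these 15 with a higher level in watered atx1 than in watered wild type.

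**Figure D1:**
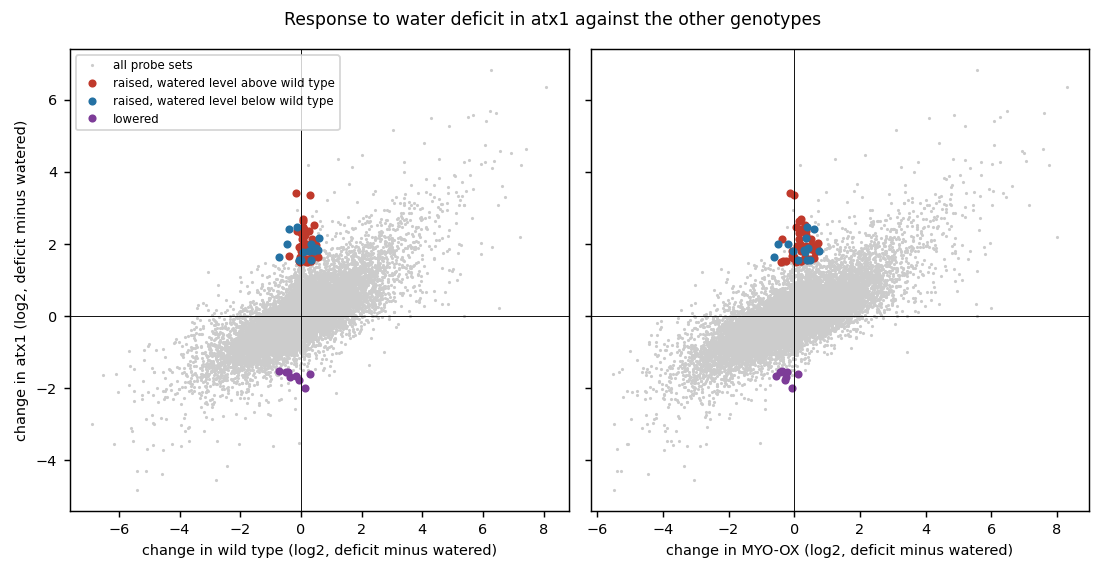
Change with water deficit in atx1 (vertical axis, log2, deficit minus watered group means) against the change in wild type (left) and MYO-OX (right) for all 22746 probe sets in grey, with the 57 raised members in red and blue and the 8 lowered members in purple. The members lie in the narrow band where the change in the other genotype is under 0.75 in size, as the rule requires.

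Within all 57 raised members both water-deficit atx1 arrays lay above both watered ones, an order that 20.9% of all probe sets showed, and the size chosen by the rule goes with it. For 48 of them both water-deficit atx1 arrays lay above the other 10 arrays of the study, against 4.24% of all probe sets. In limma fitted to all probe sets, 37 of the 57 were called higher in atx1 under deficit, where 2.1% of all probe sets were. Since the rule used this contrast, the count describes the choice and nothing more. Over raised and lowered members together the calls numbered 39. With the dimmest 40% of probe sets left out, 23 raised and 5 lowered members remained, and 16 of these were called. The share of the remaining probe sets called in that fit is not given here. With the 4 atx1 arrays alone limma called 0 of all probe sets, so 0 called members says nothing about the members. In that fit 60 of the 65 had an unadjusted p under 0.05, again on the contrast that the rule used, and the share over all probe sets is not given here. The fit to all 12 arrays called 1 raised member in the MYO-OX response, where 24.7% of probe sets were called. This was AT2G47050 with a change of 0.62 (SE 0.175, limma adjusted p = 0.0334).

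The raised members fell into 2 patterns by their level in watered plants, a division made after the values were seen and carrying no test. In 43 of them watered atx1 stood above watered wild type. In the other 14 it stood below. The division was 41 and 16 after each array was centred on its median and 43 and 14 after repeated quantile normalization.

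**Figure D2:**
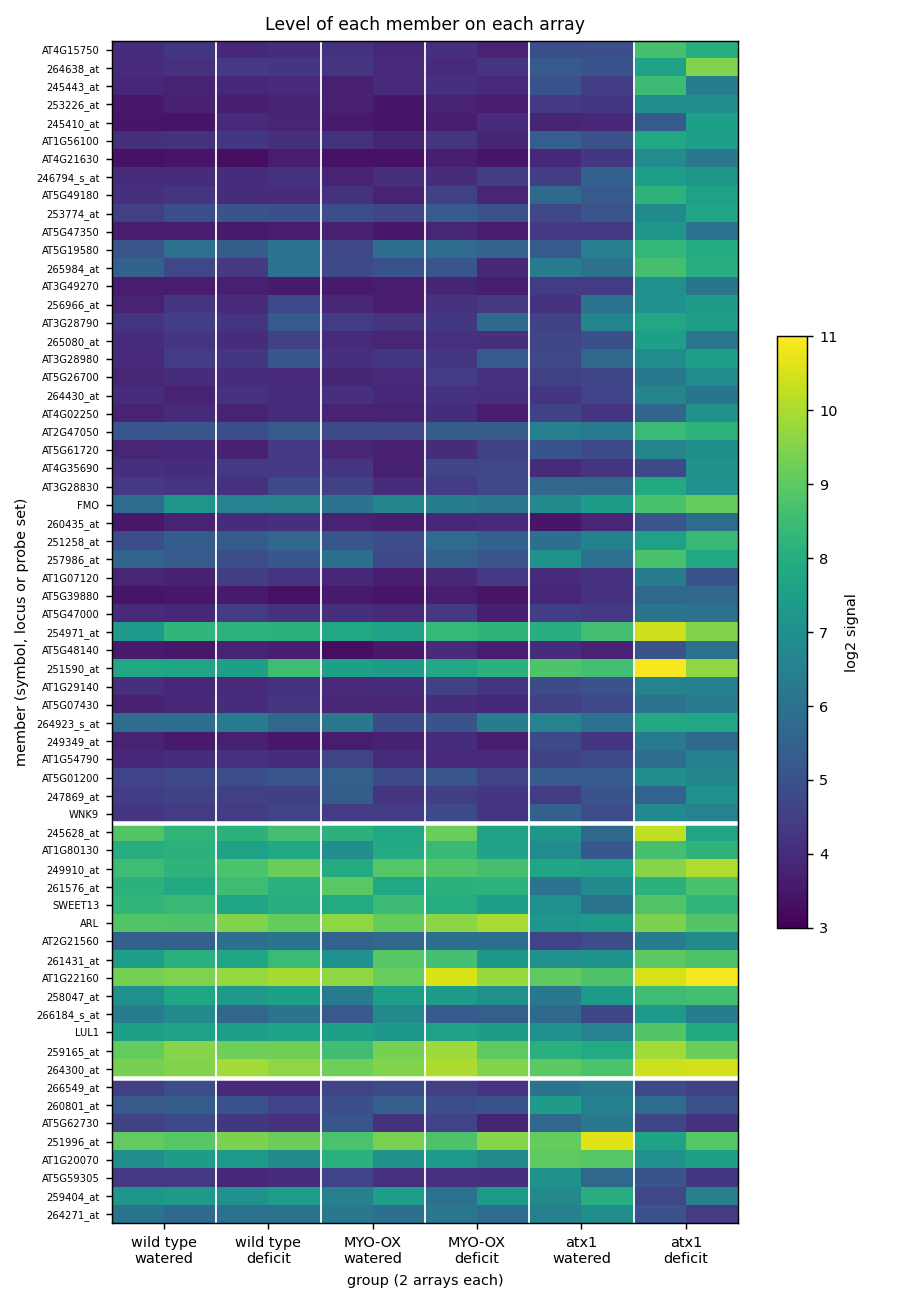
Log2 signal (colour, 3 to 11) of the 65 members in rows on the 12 arrays in columns, with the 2 arrays of each group side by side. White lines part the 43 raised members whose watered atx1 level was above wild type (top), the 14 whose level was below (middle) and the 8 lowered members (bottom), and most rows of the top block are dark outside the water-deficit atx1 arrays.

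Most of the 43 members of the first pattern were dim outside atx1 under deficit. Their median level was 4.04 in watered wild type, a level that 18.9% of probe sets did not exceed, and 37 of the 43 were among the dimmest 40% of probe sets there. The exceptions were FMO, AT5G19580, 251590_at, 254971_at, 257986_at and 264923_s_at. The median was 4.29 in wild type under deficit, and 4.0 and 4.24 in watered and water-deficit MYO-OX. It was 4.93 in watered atx1 and 6.83 in atx1 under deficit. All 43 had both water-deficit atx1 arrays above the other 10 arrays. Watered atx1 already lay above every wild-type and MYO-OX array for 25 of them. The share over all probe sets is not given here, and the split by watered level favours this order. The deposited values carry no detection call, so whether low levels exceed background is unknown and the folds from them are not exact.

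AT4G15750 on chromosome 4 had the largest change, 3.42 (SE 0.243), which is 10.7-fold. It stood at 8.69 and 8.0 in atx1 under deficit and at 4.91 and 4.94 in watered atx1. Wild type gave 4.05 and 4.28 when watered and 3.93 and 4.06 under deficit, and MYO-OX gave 4.18 and 3.90, then 4.07 and 3.77. The water-deficit atx1 arrays were the highest of all, the watered atx1 arrays were next, and the 8 others did not part by water state or genotype. The unannotated probe set 264638_at came second with 3.35 (SE 0.497), and its 2 water-deficit atx1 arrays, at 7.57 and 9.47, lay further apart than the 8 wild-type and MYO-OX arrays did.

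AT1G56100 changed by 2.46 (SE 0.228). Its water-deficit atx1 arrays read 7.79 and 7.49 and its watered atx1 arrays 5.39 and 4.98, with the other 8 between 3.82 and 4.29. AT5G49180 changed by 2.37 (SE 0.303), from 5.76 and 5.27 in watered atx1 to 8.18 and 7.59 under deficit, where the other 8 arrays lay between 3.80 and 4.56. Both genes showed 3 separate steps, with wild type and MYO-OX lowest, watered atx1 between and water-deficit atx1 highest.

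AT4G21630 changed by 2.43 (SE 0.241), from 3.92 and 4.30 to 6.86 and 6.21, with all wild-type and MYO-OX arrays between 3.32 and 3.67. AT5G47350 changed by 2.31 (SE 0.325), from 4.36 and 4.32 to 7.24 and 6.06, and AT3G49270 by 2.14 (SE 0.261), from 4.43 and 4.41 to 7.01 and 6.11. On the 8 wild-type and MYO-OX arrays AT5G47350 lay between 3.53 and 3.86 and AT3G49270 between 3.57 and 3.83. In all 3 genes the first water-deficit atx1 replicate was the higher one.

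AT5G19580 and AT3G28790 were less regular. AT5G19580 changed by 2.26 (SE 0.513), and its watered atx1 arrays, at 5.27 and 6.42, overlapped the wild-type arrays at 5.10 and 6.0 when watered and 5.35 and 6.06 under deficit. Under deficit it read 8.29 and 7.92 in atx1. AT3G28790 changed by 2.02 (SE 0.683), from 4.58 and 6.62 to 7.76 and 7.49. The change was 1.0 without atx1 watered replicate 1 and 3.05 without replicate 2. Its second replicate was also the higher one in wild type under deficit (4.22 and 5.28) and in MYO-OX under deficit (4.30 and 5.73).

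A pair of members in this pattern had a symbol. FMO, a gene named for the flavin monooxygenases, which add oxygen to small molecules, stood at 8.71 and 9.12 in atx1 under deficit and 6.79 and 7.43 in watered atx1. Watered wild type gave 5.86 and 7.24 and water-deficit wild type 6.55 and 6.59, with MYO-OX between 6.05 and 6.66. Its change was 1.81 (SE 0.436), and only the water-deficit atx1 arrays parted from the rest. WNK9, a member of the WNK family of kinases that lack the usual catalytic lysine, changed by 1.5 (SE 0.251), from 5.45 and 4.88 to 6.79 and 6.54, with the other 8 arrays between 4.19 and 4.76.

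AT2G47050, named here after its values were seen, showed the same 3 steps. It read 8.45 and 8.16 in atx1 under deficit and 6.47 and 6.32 in watered atx1. Wild type gave 5.15 and 5.14, then 4.93 and 5.27, and MYO-OX gave 4.75 and 4.70, then 5.36 and 5.34.

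**Figure D3:**
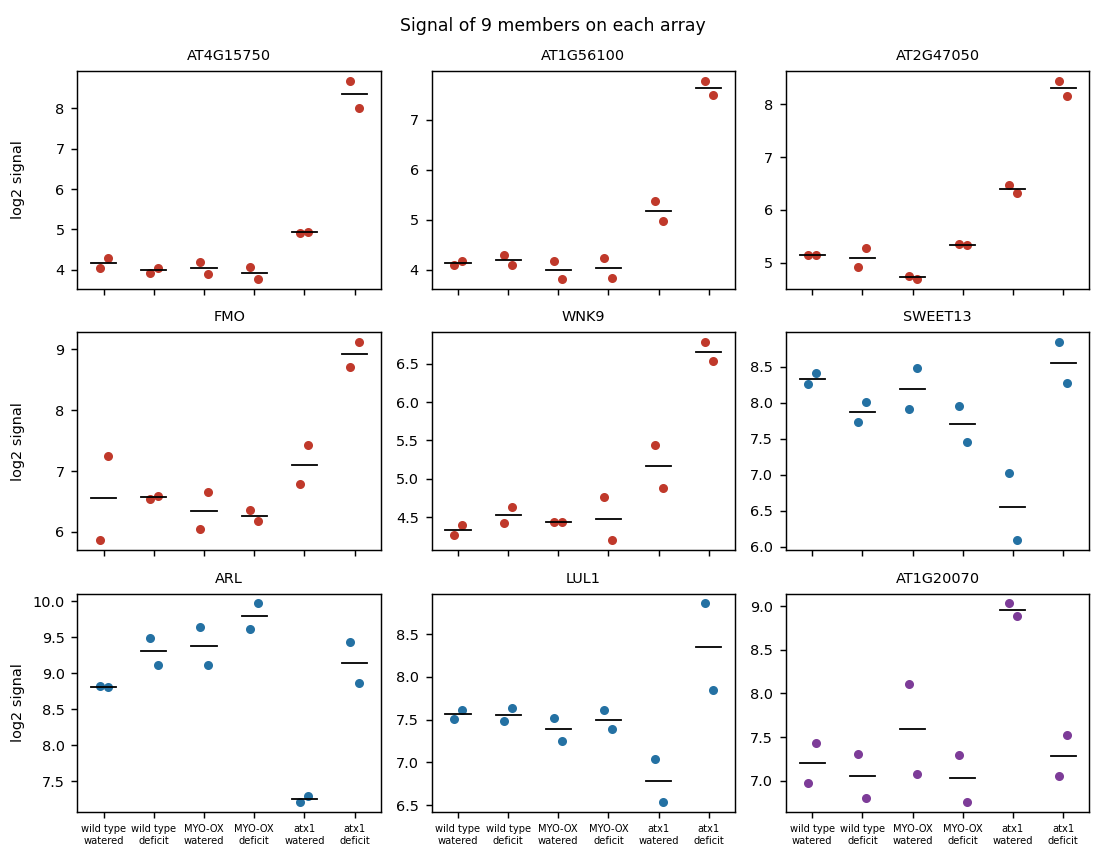
Log2 signal of 9 members on each array (points, 2 per group) with the group mean (line), on axes that differ between panels. The first 5 panels show raised members highest in atx1 under deficit, the next 3 show SWEET13, ARL and LUL1, whose watered atx1 arrays are the lowest, and the last shows the lowered member AT1G20070, whose watered atx1 arrays at 9.03 and 8.89 are the highest.

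The 14 members of the second pattern had higher levels, and none was among the dimmest 40% of probe sets in watered wild type, though AT2G21560 and 266184_s_at were in watered atx1. Their median level was 8.20 in watered and 8.19 in water-deficit wild type, and 8.09 and 8.08 in MYO-OX. Watered atx1 stood lower at 6.79 and atx1 under deficit at 8.72. For 11 of the 14 both watered atx1 arrays lay below all 8 wild-type and MYO-OX arrays. The split favours this order too, and its share over all probe sets is not given here. Under deficit both atx1 arrays exceeded the other 10 for 5 members (LUL1, AT2G21560, 249910_at, 258047_at and 264300_at), and the atx1 mean lay within the range of wild-type and MYO-OX arrays for another 5, among them ARL. The median difference of atx1 from wild type was -1.05 when watered and 0.72 under deficit.

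SWEET13 encodes a sucrose transporter of the SWEET family, some members of which export sucrose from leaf cells for loading into the phloem. It stood at 7.03 and 6.09 in watered atx1 and at 8.84 and 8.27 under deficit, a change of 2.00 (SE 0.361). Wild type gave 8.25 and 8.41 when watered and 7.73 and 8.0 under deficit, and MYO-OX gave 7.91 and 8.47, then 7.95 and 7.45. The watered atx1 arrays were the lowest of the 12, and the water-deficit atx1 arrays overlapped watered wild type and watered MYO-OX. The direction in wild type and MYO-OX was downward, with changes of -0.46 and -0.49.

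ARL, for ARGOS-like, encodes a relative of the organ size regulator ARGOS and promotes cell expansion. It read 7.21 and 7.29 in watered atx1, against 8.82 and 8.80 in watered wild type and 9.64 and 9.12 in watered MYO-OX. Under deficit it read 9.43 and 8.87 in atx1, 9.49 and 9.12 in wild type and 9.61 and 9.97 in MYO-OX. The change in atx1 was 1.90 (SE 0.262), and it brought a low watered level into the range of the other genotypes.

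LUL1, a ubiquitin ligase of the LOG2-like family, read 7.03 and 6.54 in watered atx1 and 8.86 and 7.85 under deficit, a change of 1.57 (SE 0.321). The 8 wild-type and MYO-OX arrays lay between 7.25 and 7.64. With the GAPDH covariate its change was 0.885. LUL1 was on the far side of the other genotypes in each water state, lowest in watered atx1 and highest in water-deficit atx1. AT1G80130 had a large change in this pattern, 2.42 (SE 0.545), from 6.86 and 5.17 to 8.65 and 8.22, and 1.57 without atx1 watered replicate 2. Its watered atx1 replicates differed by more than those of wild type, which read 7.99 and 8.13, then 7.59 and 7.78.

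The 8 lowered members changed by a median of -1.64 in atx1 (range -1.99 to -1.51), with 3 annotated to 1 gene, none with a symbol, and 5 not listed. Their median change was -0.26 in wild type and -0.27 in MYO-OX. All 8 had both water-deficit atx1 arrays below both watered ones, as 23.6% of all probe sets had, and 2 were called lower in the atx1 response, namely 264271_at and 266549_at, where 1.09% of probe sets were. The member nearest the threshold, 266549_at at -1.51, was also the only member called in the wild-type response (-0.73, SE 0.19, limma adjusted p = 0.0304), where 19.6% of all probe sets were called in either direction. The nearest probe set outside the threshold was 250939_at at -1.497. The lowered count was the less stable one: it was 14 after median centring, 23 and 31 without atx1 deficit replicate 1 or 2, and 45 and 18 without atx1 watered replicate 1 or 2.

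Most lowered members started high in the mutant. Watered atx1 was above watered wild type in all 8 group means, by a median of 1.38 (range 0.06 to 2.02), and above every wild-type and MYO-OX array for 6. No share over all probe sets is given beside this last count, so it is a description. Under deficit the median difference was 0.20 (range -1.67 to 0.70), and the atx1 mean lay within the range of the other arrays for 4 members. AT1G20070 read 9.03 and 8.89 in watered atx1 and 7.05 and 7.52 under deficit, a change of -1.67 (SE 0.374), with the other 8 arrays between 6.76 and 8.11. AT5G59305 changed by -1.70 (SE 0.435), from 7.06 and 5.66 to 5.07 and 4.26, with the other arrays between 3.92 and 4.62. Its change was -0.99 without atx1 watered replicate 1.

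AT5G62730 changed by -1.54 (SE 0.378), from 5.71 and 6.21 to 4.66 and 4.17, while wild type gave 4.59 and 4.77, then 4.29 and 4.18. For these 3 genes the watered atx1 arrays were the highest of the 12. The probe set 264271_at differed from them: it read 6.49 and 6.96 in watered atx1 and 5.05 and 4.41 under deficit, below all other arrays, which lay between 5.75 and 6.21 in wild type and MYO-OX.

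The comparison of atx1 with wild type inside each water state shares arrays with the rule, and the exclusions acted on it, so its counts are a description. Under deficit 39 of the 57 raised members were called higher in atx1, where 7.36% of all probe sets were. Of the 8 lowered members 266549_at was called higher there and 264271_at lower, where 4.73% of probe sets were called lower. In watered plants the raised members AT2G47050 and AT1G29140 were called higher, beside 1.2% of all probe sets, and ARL and SWEET13 lower, beside 1.01%. The lowered member 266549_at was called higher in watered atx1. The median difference over the raised members was 0.56 in watered plants (43 positive, 14 negative) and 2.29 under deficit (56 positive, 1 negative, the negative one being ARL at -0.15).

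**Figure D4:**
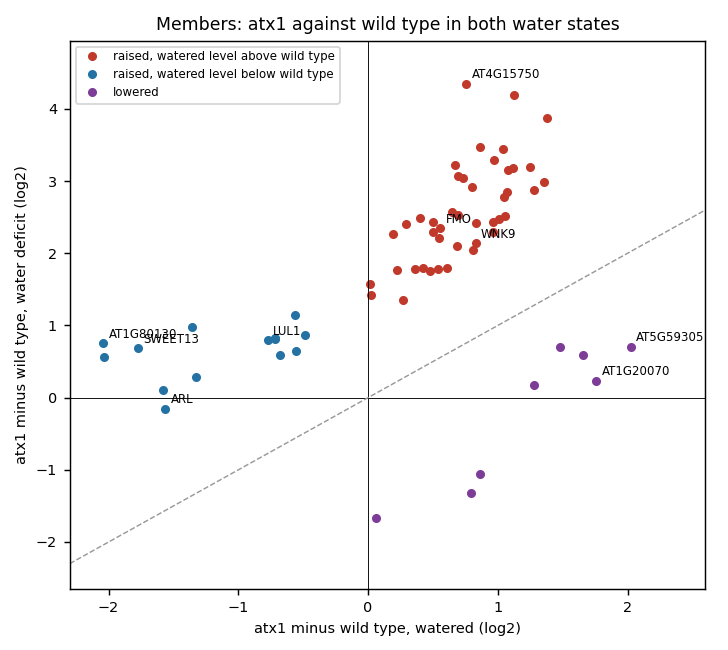
Difference of atx1 from wild type in log2 signal under water deficit (vertical axis) against the same difference in watered plants (horizontal axis), 1 point per member, with a dashed line where the differences are equal. Red points (43 raised) lie to the right of zero and above the line, blue points (14 raised) to the left of zero, and purple points (8 lowered) to the right of zero and below the line. Red and blue were assigned by the side of zero, and the rule fixes the side of the line for every member.

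The one contrast that the rule did not use was MYO-OX against wild type averaged over both water states. It asked whether the members differ in level between these genotypes. No member was called, and 0% of all probe sets were, with a lowest limma adjusted p of 0.834 over all probe sets. At an unadjusted p under 0.05 the fit gave 1 of the 65 members (1.54%), which was ARL, and 370 of all probe sets (1.63%). The raised members differed by a median of -0.002 and the lowered by 0.04, with single differences from -0.53 to 0.53 and a median SE of 0.237. ARL was the highest of these, at 0.53 (SE 0.185, limma adjusted p = 0.9999), in the direction of MYO-OX above wild type.

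Replicates of the raised members lay further apart in atx1 under deficit than probe sets did in general. The median gap between the 2 water-deficit atx1 arrays was 0.592 for the raised members and 0.272 over all probe sets. In watered atx1 it was 0.335 against 0.281, and in watered wild type 0.155 against 0.221. Water-deficit wild type gave 0.202 against 0.184, and MYO-OX gave 0.253 against 0.420 when watered and 0.332 against 0.289 under deficit. The rule chose the members on these same arrays, so the gaps are a description. The largest gap, 2.55, belonged to 245628_at, at 10.23 and 7.68 under deficit in atx1.

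The 31 raised members with a locus lay on all 5 chromosomes, with 7, 3, 4, 4 and 13 on chromosomes 1 to 5, which hold 26.2%, 15.2%, 20.4%, 14.3% and 23.3% of the measured loci. AT3G28790 and AT3G28830 lay 3 genes apart on chromosome 3, and AT3G28980 lay 25 genes from the second. AT3G28830 read 5.63 and 5.64 in watered atx1 and 7.85 and 7.04 under deficit, and AT3G28980 read 4.75 and 5.67, then 6.89 and 7.49. That all 3 were higher follows from the rule. Measured genes beside them that are not members, AT3G28780, AT3G28840, AT3G28850 and AT3G28960, changed in atx1 by 0.26, 0.94, -0.20 and 0.10, and none was called. Whether the probes share sequence was not tested.

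No other members with a locus were close neighbours. The places of the members with no locus were not known here. Among 57 measured genes within 2 genes of a raised member, 2 were called higher in the atx1 response and 1 lower, beside 2.1% and 1.09% of all probe sets, and their median change was -0.004. The genes called higher were APL4, beside AT2G21560, and CPUORF47, beside LUL1. APL4, a large subunit of the starch enzyme ADP-glucose pyrophosphorylase, changed by 3.14 in atx1 and by 4.82 in wild type, and CPUORF47 by 2.80 and 2.30. Their levels were thus higher under deficit in wild type too, while AT2G21560 changed there by 0.56. The gene called lower, AT1G54820, changed by -2.20 in atx1 and -3.28 in wild type. Of the lowered members only AT5G62730 had measured neighbours, 3 in number, with a median change of -1.42. AT5G62710 was called lower, with -1.42 in atx1 and -1.33 in wild type, AT5G62720 changed by -1.58 and -0.50, and AT5G62750 by 0.39 in atx1. SWEET10, next to SWEET13 and of the same transporter family, changed by -1.12 (limma adjusted p = 0.149).

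The members were set against lists of genes for leaf cell types, dehydration proteins, hormones and stress. Of 112 genes in 13 lists, 14 were measured under their own name, and none was a member. Members make up 0.286% of all probe sets, so 0 of so few genes says nothing about the lists, and 2 of the 14, ZAT10 and PDF1.2, were among the 3 probe sets left out by name. The measured dehydration genes COR15A, COR47 and LEA4-5 changed by 3.56, 3.09 and 6.38 in wild type, and in atx1 by 1.23, 1.23 and 4.32. All 3 passed the test in wild type and MYO-OX, and LEA4-5 in atx1.

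The flower genes of those lists were not measured under a name, and another 2 lists were therefore chosen after the values were seen. Of 10 genes for pollen and anther none was a member, a count too small to read against that share. The log2 of their summed signal was 7.94 and 8.09 in watered and 8.32 and 8.42 in water-deficit wild type. It was 7.97 and 8.25 in watered MYO-OX and 8.29 and 8.44 under deficit, and 8.53 and 8.74 in watered atx1 and 8.70 and 8.94 under deficit, so the 4 atx1 arrays lay above the 8 others. Such a sum is weighted to its highest genes, and its value without SWEET8 and SHT, described below, is not given here. Over the 10 genes the median difference of atx1 from wild type was 0.02 when watered and -0.001 under deficit, so the order was not shared by the list as a whole. In a bulk sample more cells of a type and more RNA per cell cannot be told apart.

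Of the 10 genes SWEET8 read higher on all 4 atx1 arrays, and SHT in watered atx1 and on the first water-deficit atx1 array. SWEET8, also known as RUPTURED POLLEN GRAIN1 and needed for the pollen wall, read 7.06 and 6.30 in watered atx1 and 7.05 and 7.87 under deficit, with the other 8 arrays between 4.78 and 5.59. SHT, an acyltransferase that makes spermidine conjugates of the pollen coat, read 6.55 and 6.5, then 5.69 and 4.61, with the others between 4.19 and 4.74. The male gamete histone gene MGH3 lay between 4.16 and 4.81 on all 12 arrays, the pollen aperture gene INP1 between 3.90 and 4.54, and AGL66 and AGL104, MADS-box genes of pollen, between 3.70 and 4.81. The other MADS-box genes of the list, AGL18, AGL30, AGL65 and AGL94, differed between atx1 and wild type under deficit by -0.23, -0.26, -0.66 and -0.57. The median difference over the 10 genes was 0.02 when watered and -0.001 under deficit.

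Of 5 floral organ genes none was a member, again too few to read. Their summed signal was 8.56 and 8.73 in watered atx1 and 7.99 and 8.84 under deficit, within the range of 7.89 to 9.26 on the other arrays. AGL42 read 7.18 and 6.90 in watered atx1 against 4.51 to 5.82 in the other watered groups, and PTL, a regulator of petal number and sepal spacing, 5.23 and 5.34 against 4.50 to 5.06. Under deficit AGL42 read 6.59 and 8.28 in atx1 and PTL 5.27 and 5.33, and both overlapped the other genotypes, which reached 6.69 and 5.35. AGL24 went the other way, at 7.62 and 7.46 in watered atx1 against 7.64 to 8.89 in the other watered groups. SAP lay between 4.06 and 4.63 on all 12 arrays. UFO, a floral meristem regulator, lay between 4.28 and 4.74 on all 12 arrays. The part of pollen, anther or flower RNA in the members' levels was not tested.

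**Figure D5:**
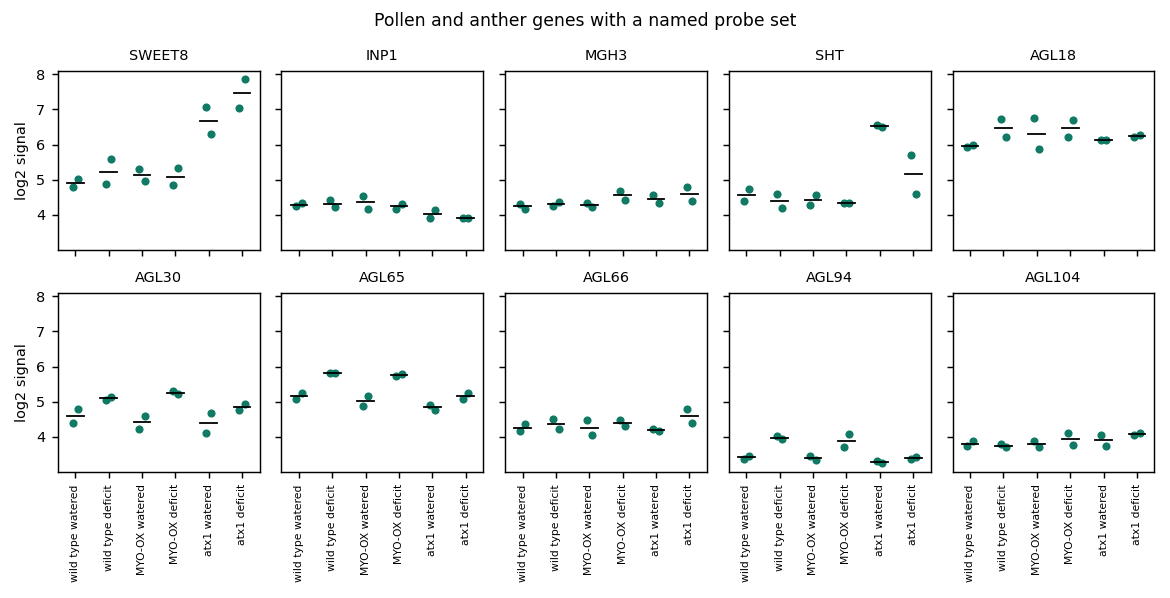
Log2 signal of the 10 pollen and anther genes on each array (points, 2 per group) with the group mean (line), on a shared axis. SWEET8 is higher on all 4 atx1 arrays and SHT highest in watered atx1, while MGH3, INP1, AGL66 and AGL104 stay below 5 on every array.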

How the data were processed

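Log2 signals of 22810 ATH1 probe sets were deposited by the authors, who made them by RMA (version not given), per the submitters' processing notes. They carry no detection calls, and the number of arrays limits precision. After 64 control probe sets were set apart, 22746 were fitted in R 4.3.3 with limma 3.58.1, with 1 mean for each of 6 groups, 6 residual and 2.34 prior degrees of freedom. Calls are two-sided at a Benjamini-Hochberg adjusted p under 0.05 over all 22746. The procedure was tested on simulated data.

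The annotation listed 14016 probe sets, 13513 with 1 gene, and left 38.4% unlisted; 13436 matched a TAIR10.1 locus. The members and gene lists were chosen with earlier results of these data known. Named members are those with a symbol, the 10 largest changes with 1 locus in each direction, and those nearest the threshold; others were named after their values were seen. Correlations of replicate differences between groups ran from -0.286 to 0.561, below 0 only in pairs with water-deficit wild type. Not all exceeded 0.1, so equal numbers were not taken as pairs, though the correlation was 0.499 between watered and water-deficit atx1. Tried were other scalings, filters, priors, covariates, thresholds, array subsets and a replicate block.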

Additional observations from a re-analysis of the deposited data

How the results depend on the processing

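The member counts depended on the limits more than on scaling. With dim probe sets left out 23 raised and 5 lowered remained, 16 of them called in the atx1 response, and the share of the remaining probe sets called is not given here. Median centring gave 14 lowered probe sets, and it moved the median wild-type response of all probe sets from 0.01 to 0.12 and the atx1 difference from wild type under deficit from 0.01 to -0.22. The hybridization covariate gave 15 lowered, and the GAPDH covariate gave 166 raised and 52 lowered, 41 and 5 of them members. An atx1 change of at least 2 left 21 raised and 0 lowered, one of at least 2.38-fold gave 98 and 25, and a ceiling of 1 in the other genotypes gave 17 lowered. With only the 4 atx1 arrays limma called 0 of all probe sets in the atx1 response, members among them. The 60 of 65 members at an unadjusted p under 0.05 there rest on the contrast that the rule used. Leaving out 1 array gave 50 to 113 raised and 8 to 45 lowered. The raised count was 113 without atx1 deficit replicate 2. The lowered count was 23 without atx1 deficit replicate 1, 31 without replicate 2, 45 without atx1 watered replicate 1 and 18 without replicate 2. The number of calls also changed with the array left out, but 1 array then stood for its group, so these counts are not given. In all, 17 raised members and 1 lowered member met the rule whichever of the 12 arrays was left out. With the replicate block 48 members were called in the atx1 response against 39, and 0 in MYO-OX against wild type, while calls between watered atx1 and wild type went from 5 to 8. The shares of all probe sets called with the block are not given here. Replicate 1 had the higher hybridization controls in all 6 groups. Exchanging the numbers of the wild-type deficit arrays, an alternative added after seeing the data, gave the same 48 and 0. MYO-OX against wild type gave 0 members under every alternative that kept both arrays of each group. The main fit called 0% of all probe sets in that contrast, so 0 called members says nothing about the members. The shares under the alternatives are not given here. Named members kept their direction under every alternative run, with changes moving over 1.5 times for AT3G28790, AT1G80130, AT5G59305 and LUL1: 1.0 and 3.05 for AT3G28790, 1.57 for AT1G80130 and -0.99 for AT5G59305 without a watered atx1 replicate, and 0.885 for LUL1 and -2.66 for AT5G59305 with the GAPDH covariate. Promoter motifs were not run, since no promoter sequences were at hand. Dim levels and 2 arrays per group limit every fold given.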
